A study of Ipomoea batatas with 9 samples.

Results

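Fatty acid desaturase transcripts were measured by RNA sequencing in sweetpotato (Ipomoea batatas) storage roots, cultivar Xushu 18. The desaturases were the contigs of the deposited expression table whose product description holds the word desaturase, without those described as phytoene or carotene desaturases. This left 36 of 110110 contigs, after 7 carotenoid desaturase contigs were set aside. By their descriptions 11 were omega-6 desaturases, 10 omega-3 desaturases, 8 acyl-carrier protein desaturases, 5 stearoyl-CoA desaturases and 2 sphingolipid delta-4 desaturases. The 3 groups were roots stored at 4 °C, roots stored at 14 °C and roots that were not stored, with 3 libraries each. Both stores were held at 85% relative humidity, and each library was made from 7 pooled roots. The sources used here do not say how long the sequenced roots had been kept, so time in store and temperature cannot be told apart in either comparison with roots that were not stored. The study asked which root genes respond to low temperature.

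Fatty acid desaturases put double bonds into acyl chains and so set how unsaturated membrane lipids are, a property that cold-exposed plants are known to adjust. In the plastid, soluble stearoyl-acyl-carrier-protein desaturases make the first double bond with electrons from ferredoxin. Membrane-bound omega-6 enzymes (FAD2 in the endoplasmic reticulum, FAD6 in the plastid) and omega-3 enzymes (FAD3 in the endoplasmic reticulum, FAD7 and FAD8 in the plastid) then add the next double bonds in turn, and the enzymes of the endoplasmic reticulum take electrons from cytochrome b5.

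Total estimated counts ranged from 67643612 to 95421913 per library. Desaturase contigs took 0.0285% to 0.0353% of the counts at 4 °C, 0.0698% to 0.0799% at 14 °C and 0.113% to 0.131% in roots not stored. CPM are counts scaled by the library total multiplied by its TMM factor. In log2 CPM of 47349 contigs, libraries of the same group correlated at 0.958 to 0.985, and those of different groups at 0.61 to 0.89. Sporamin, the main storage protein of the root and its defining marker, was detected in every library through all 9 of its contigs. Its summed level was 35.98 to 352 TPM (a transcript level scaled by contig length and library total) at 4 °C, 55500 to 64590 TPM at 14 °C and 92860 to 116900 TPM in roots not stored. The 116 contigs of light-harvesting and photosystem proteins summed to 205 to 241 TPM at 4 °C, 736 to 793 TPM at 14 °C and 1885 to 2266 TPM in roots not stored. The 106 core histone contigs, markers of dividing cells, summed to 4570 to 5136 TPM at 4 °C, 1568 to 1970 TPM at 14 °C and 1579 to 1998 TPM in roots not stored. In a single library, 0 sporamin contigs, 0 to 32 of the green tissue contigs and 3 to 8 of the histone contigs were listed at 0. These levels move with the groups, and their part in the desaturase results was not tested. In bulk tissue, fewer cells of a type and less RNA per cell cannot be told apart. The labels name root as the tissue, while their extraction text speaks of retinas.

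The contigs of each type shared further annotation. No KEGG orthology number was shared between types, so these numbers may not be an independent check on the descriptions used for the selection. All 10 omega-3 contigs carried the symbol FAD7, one KEGG orthology number (K10257) and a chloroplast membrane location. The omega-6 contigs fell into a set of 9 with K10256 and an endoplasmic reticulum membrane location, 7 of them with the symbol FAD2 or FAD2-2, and a set of 2 with K10255, a chloroplast membrane location and no symbol. All 8 acyl-carrier contigs were placed in the chloroplast under K03921, and 1 of them had a symbol, S-ACP-DES6. The 5 stearoyl-CoA contigs all had the symbol ADS3, and the 2 sphingolipid contigs the symbol DEGS1. Contig lengths ran from 262 to 2801 bases, and 17 of the 36 contigs reached 1000 bases. Consecutive assembly identifiers occurred in 3 runs holding 10 contigs, 5 of them FAD7, 3 of them FAD2 or FAD2-2 and 2 of them ADS3. Contigs of one symbol may be pieces or near-identical copies of one gene in this polyploid crop, and how reads were shared among them is uncertain.

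The make-up of the desaturase transcripts at 4 °C differed from that in both other groups. Omega-6 transcripts, which made up most of the total at 14 °C and in roots not stored, were below the acyl-carrier type at 4 °C. Their summed level was 74.3, 86.6 and 66.7 TPM in the 3 libraries at 4 °C, 322.5, 322.2 and 345.3 TPM at 14 °C, and 550.6, 463.5 and 512.3 TPM in roots not stored. All libraries at 4 °C were low, all libraries of roots not stored were high, and the 3 groups did not overlap. Acyl-carrier transcripts summed to 113.2, 114.5 and 110.3 TPM at 4 °C, 59.1, 56.5 and 61.5 TPM at 14 °C, and 58.4, 62.3 and 68.7 TPM in roots not stored. Here the libraries at 4 °C stood above all others. Those at 14 °C and of roots not stored overlapped in TPM, but not in CPM (65.2 to 75.6 at 14 °C, against 92.4 to 100.5 in roots not stored) or in RPKM (54.2 to 60.8 at 14 °C, against 65.6 to 69.8 in roots not stored). Omega-3 transcripts summed to 29.2, 43.3 and 20.7 TPM at 4 °C, 6.95, 6.01 and 8.02 TPM at 14 °C, and 16.7, 29.7 and 15.9 TPM in roots not stored. The libraries at 14 °C were the lowest for this type, and those at 4 °C overlapped those of roots not stored.

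**Figure D1:**
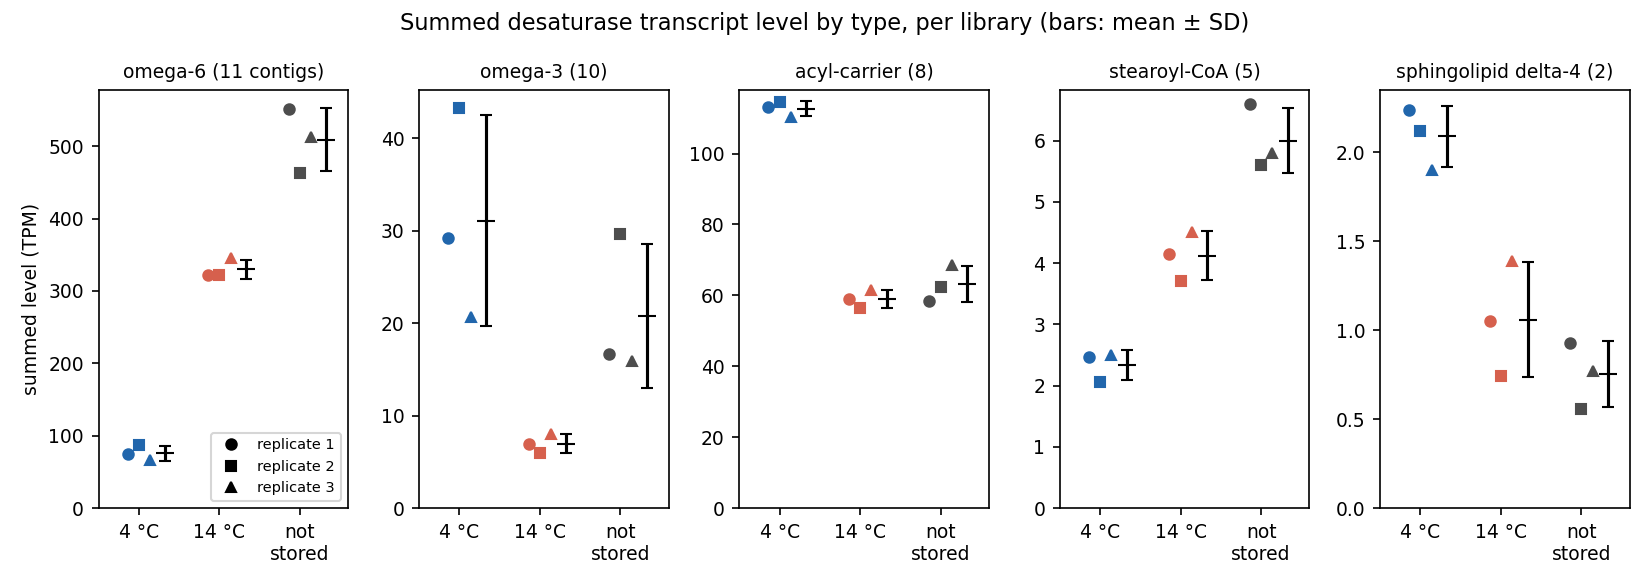
Summed TPM of each desaturase type (vertical axes, from 0) in each of the 9 libraries (points, shaped by replicate number), with the mean ± SD of each group (bars). Omega-6 levels averaged 75.8 TPM at 4 °C, 330.0 TPM at 14 °C and 508.8 TPM in roots not stored, whereas acyl-carrier levels averaged 112.7, 59.0 and 63.2 TPM in the same order of groups.

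As a share of all desaturase TPM, the omega-6 type held 33.8% ± 0.946 at 4 °C and 82.3% ± 0.468 at 14 °C, against 84.8% ± 2.22 in roots not stored (SD, n = 3 each). The acyl-carrier type held 50.6% ± 4.29 at 4 °C and 14.7% ± 0.258 at 14 °C, against 10.6% ± 1.17 in roots not stored. The omega-3 type held 13.6% ± 3.6 at 4 °C and 1.74% ± 0.183 at 14 °C, against 3.52% ± 1.53 in roots not stored. Within a library, omega-6 transcripts exceeded omega-3 transcripts 2.0 to 3.22 times at 4 °C, 43.1 to 53.6 times at 14 °C and 15.6 to 33.0 times in roots not stored. These sums add every contig of a type, so a gene assembled in several pieces enters once per piece, and they carry no test.

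**Figure D2:**
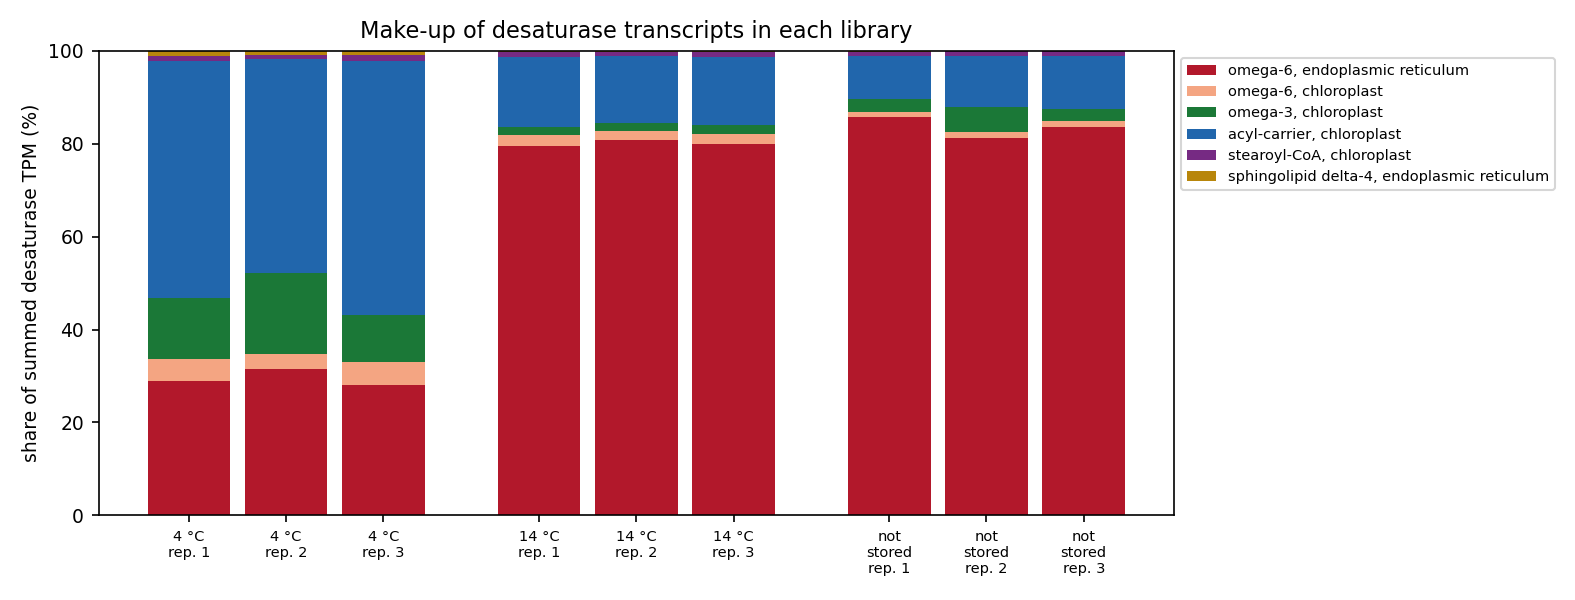
Share of the summed desaturase TPM (vertical axis, percent) held by each type in each of the 9 libraries, with the omega-6 type divided by annotated location. The endoplasmic reticulum omega-6 contigs held 29.5% on average at 4 °C and 80.1% at 14 °C, against 83.5% in roots not stored, and the acyl-carrier contigs filled the largest share at 4 °C.

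Differences of single contigs were tested in 1 edgeR quasi-likelihood fit over the 94802 contigs that passed a filter on low counts, which all 36 desaturases passed. A contig was called higher or lower where its p, adjusted by Benjamini-Hochberg over all tested contigs, was under 0.05. Between 4 °C and 14 °C, 16 desaturase contigs were called higher and 6 lower, where 23.8% of all tested contigs were called higher and 24.0% lower. The 16 higher ones were 44.4% of the desaturases and the 6 lower ones 16.7%, and without 14 °C replicate 1 the count of 16 became 10. Between 4 °C and roots not stored, 7 were called higher and 16 lower, which is 19.4% and 44.4% of the desaturases against 26.0% and 26.6% of all contigs. Between 14 °C and roots not stored, 0 were called higher and 20 lower (55.6%), against 15.1% and 15.7% of all contigs. DESeq2 and limma-voom also called 0 higher in that comparison, with 22 lower each, and 1 desaturase was higher at an unadjusted p under 0.05. With library totals alone as the scaling, the calls over all contigs in that comparison were 21986 higher and 10372 lower, against 14335 and 14915 in the fit reported here, and 1 desaturase was then called higher and 19 lower. The median log2 fold change over all contigs was -0.08 at 4 °C against 14 °C, -0.02 at 4 °C against roots not stored and 0.02 at 14 °C against roots not stored, and over the desaturases it was 0.47, -0.84 and -0.94.

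Of the 36 contigs, 11 were lower in both stores than in roots not stored, 6 of them omega-6, and 0 were higher in both. Another 7, of which 6 were FAD7 contigs, were lower at 14 °C and not called at 4 °C against roots not stored. A further 2, a FAD7 contig and S-ACP-DES6, were lower at 14 °C and higher at 4 °C. In 4 contigs (comp27263_c2, comp28854_c1, comp54573_c2 and comp92772_c1) no comparison was called. The stores share the libraries of roots not stored, so these counts are not independent of each other. These joint patterns were not counted over all tested contigs, so whether they are unusual for the desaturases cannot be said.

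**Figure D3:**
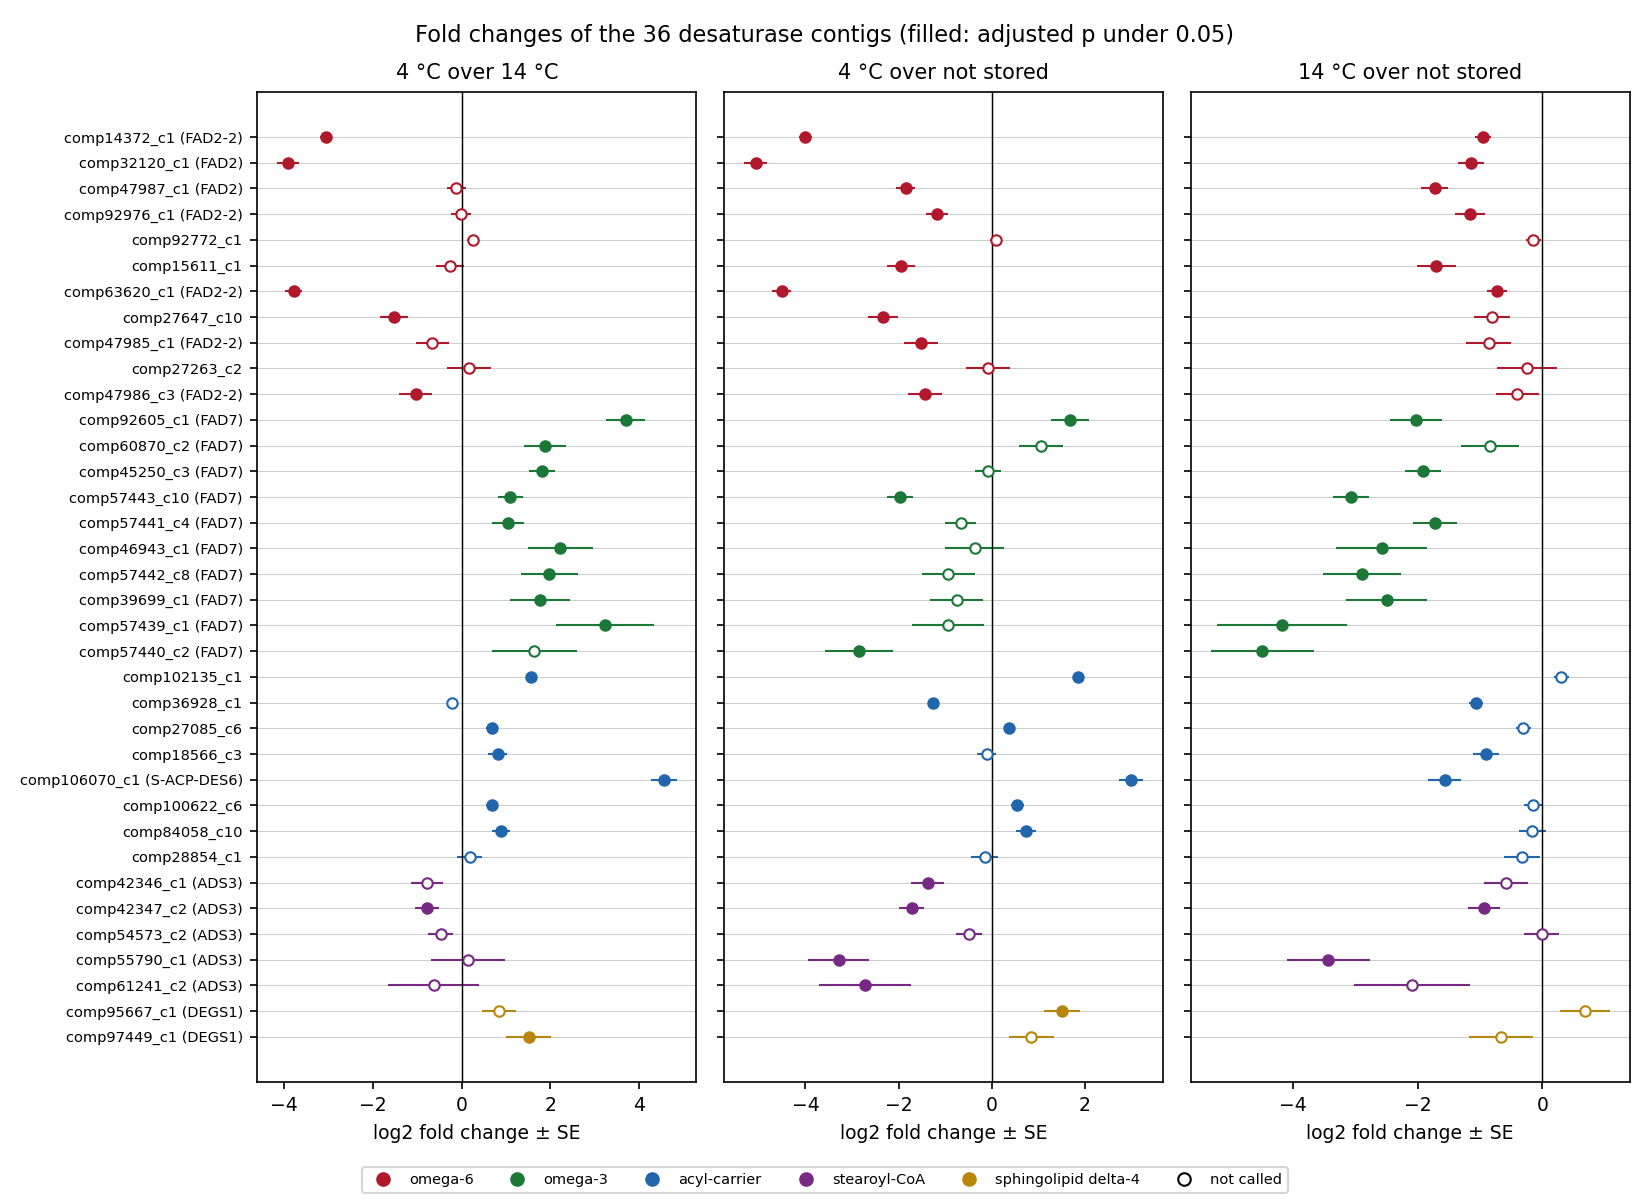
Fitted log2 fold change ± SE (horizontal axes) of each of the 36 desaturase contigs in the 3 comparisons, coloured by type, with filled points for an adjusted p under 0.05. Omega-6 points lie at or left of 0 in most rows of all 3 panels, and FAD7 points lie right of 0 for 4 °C over 14 °C and left of 0 for 14 °C over not stored.

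Fold changes below come from that fit, and levels are the deposited TPM. The scales differ by a near-constant amount: the log2 ratio of mean TPM minus the fitted log2 fold change had a median of -0.13 at 4 °C against 14 °C, 0.28 at 4 °C against roots not stored and 0.42 at 14 °C against roots not stored, over the 18, 21 and 23 contigs with at least 1 TPM in both groups. The sign differed between scales in 0, 4 and 8 of the 36 contigs, and 0 of these were called.

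Of the 11 omega-6 contigs, 5 were called lower at 4 °C against 14 °C. Against roots not stored, 9 were lower at 4 °C and 6 at 14 °C. These were 45.5%, 81.8% and 54.5% of the type, where 24.0%, 26.6% and 15.7% of all tested contigs were lower. No omega-6 contig was called higher in any of the 3 comparisons by edgeR, DESeq2 or limma-voom, and 0 were higher at an unadjusted p under 0.05. The fall took in the endoplasmic reticulum set, all 9 of which were lower at 4 °C than in roots not stored, with a median log2 fold change of -1.95. Neither of the chloroplast contigs was called in any comparison.

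The most abundant desaturase contig was comp14372_c1 (FAD2-2), 2801 bases long, annotated as the enzyme that turns oleate into linoleate in the endoplasmic reticulum. It had 23.4, 19.7 and 23.1 TPM at 4 °C, 193, 197 and 211 TPM at 14 °C, and 306, 266 and 291 TPM in roots not stored. The groups were fully apart, with every library at 4 °C lowest. Its log2 fold change was -3.06 ± 0.13 at 4 °C against 14 °C (SE, adjusted p = 8.2e-09), an 8.33-fold lower level, and -4.0 ± 0.14 against roots not stored (adjusted p = 1.7e-09). At 14 °C it was 1.93-fold lower than in roots not stored (log2 fold change -0.95 ± 0.13, adjusted p = 0.00019). It made up 29.6% ± 6.2 of the omega-6 sum at 4 °C and 60.7% ± 0.74 at 14 °C, against 56.6% ± 0.962 in roots not stored.

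Another pair of FAD2-type contigs was also far lower at 4 °C. The short contig comp32120_c1 (FAD2, 280 bases) had 5.09, 3.54 and 3.1 TPM at 4 °C, 61.5, 64.6 and 66.9 TPM at 14 °C, and 129, 88.7 and 100.7 TPM in roots not stored. Its log2 fold change of -3.91 ± 0.24 at 4 °C against 14 °C (adjusted p = 1.1e-07) was the largest omega-6 fall in that comparison. It was 33.5-fold lower at 4 °C than in roots not stored (log2 fold change -5.07 ± 0.25, adjusted p = 1.6e-08) and 2.22-fold lower at 14 °C (adjusted p = 0.0015). The groups did not overlap in any comparison of this contig. The less abundant comp63620_c1 (FAD2-2), singled out after its values were seen, had 0.41, 0.46 and 0.39 TPM at 4 °C, 7.56, 5.39 and 6.19 TPM at 14 °C, and 7.53, 7.0 and 9.31 TPM in roots not stored. Its libraries at 4 °C stood far below the rest, a log2 fold change of -3.78 ± 0.19 against 14 °C (adjusted p = 2.1e-08) and -4.51 ± 0.2 against roots not stored (adjusted p = 5.5e-09). The TPM of 14 °C and roots not stored overlapped, although the fit called it lower at 14 °C (log2 fold change -0.73 ± 0.16, adjusted p = 0.0053).

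These falls at 4 °C were less deep than that of the storage protein. Relative to the mean of roots not stored, comp14372_c1 kept 8.12%, 6.84% and 8.05% of its TPM in the 3 libraries at 4 °C, comp32120_c1 kept 4.8%, 3.34% and 2.92%, and comp63620_c1 kept 5.16%, 5.79% and 4.91%. Summed sporamin kept 0.326%, 0.286% and 0.0334% in the same libraries. Sporamin varied more between libraries at 4 °C than any of these FAD2 contigs did.

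Other FAD2-type contigs were lower in both stores by about the same amount. The contig comp47987_c1 (FAD2, 1274 bases) had 14.4, 19.97 and 12.2 TPM at 4 °C, 17.8, 17.6 and 20.6 TPM at 14 °C, and 49.8, 41.6 and 46.8 TPM in roots not stored. Both stores lay below roots not stored and overlapped each other. Its log2 fold change was -1.85 ± 0.21 at 4 °C against roots not stored (adjusted p = 2e-05), -1.73 ± 0.21 at 14 °C (adjusted p = 0.00013) and -0.12 ± 0.21 between the stores (adjusted p = 0.66). For comp92976_c1 (FAD2-2, 1684 bases) the values were 16.0, 25.0 and 12.8 TPM at 4 °C, 22.8, 17.8 and 19.5 TPM at 14 °C, and 31.3, 33.5 and 35.98 TPM in roots not stored. It was 2.25-fold lower at 4 °C and 2.24-fold lower at 14 °C than in roots not stored (adjusted p = 0.0015 and 0.0037), and the stores overlapped (log2 fold change -0.01 ± 0.23, adjusted p = 0.98). Within a library comp14372_c1 stood 1.35 ± 0.522 times as high as comp92976_c1 at 4 °C, 10.1 ± 1.45 times at 14 °C and 8.6 ± 1.02 times in roots not stored (SD, n = 3 each, TPM).

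Of the 4 remaining endoplasmic reticulum contigs, each averaged 11.4 TPM or less in every group and all 4 were lower at 4 °C than in roots not stored. Between the stores comp27647_c10 fell (log2 fold change -1.52 ± 0.31, adjusted p = 0.0017), and so did comp47986_c3 (log2 fold change -1.03 ± 0.37, adjusted p = 0.036). The second of these calls was lost in 8 alternatives, with an adjusted p of 0.053 to 0.13, among them leaving out any of the libraries at 4 °C or 14 °C replicate 2 or 3. Against roots not stored at 4 °C, comp15611_c1 had a log2 fold change of -1.95 ± 0.31 (adjusted p = 0.00023) and comp47985_c1 one of -1.52 ± 0.37 (adjusted p = 0.0044), which was -2.12 without replicate 2 of both groups.

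Both chloroplast omega-6 contigs lacked a call. The longer one, comp92772_c1 (1708 bases, no symbol), had 8.35, 7.78 and 7.65 TPM at 4 °C, 7.67, 7.24 and 7.05 TPM at 14 °C, and 5.91, 5.88 and 6.46 TPM in roots not stored. In TPM both stores lay above roots not stored, but the fit gave log2 fold changes of 0.09 ± 0.12 at 4 °C (adjusted p = 0.54) and -0.15 ± 0.12 at 14 °C (adjusted p = 0.37) against roots not stored. The shorter, comp27263_c2, averaged 1.58 ± 0.796 TPM at 4 °C, 1.5 ± 0.533 TPM at 14 °C and 1.33 ± 0.461 TPM in roots not stored, with overlap throughout. In summed TPM the endoplasmic reticulum set exceeded the chloroplast set 7.09 ± 1.85 times at 4 °C, 36.4 ± 1.74 times at 14 °C and 67.6 ± 2.62 times in roots not stored.

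**Figure D4:**
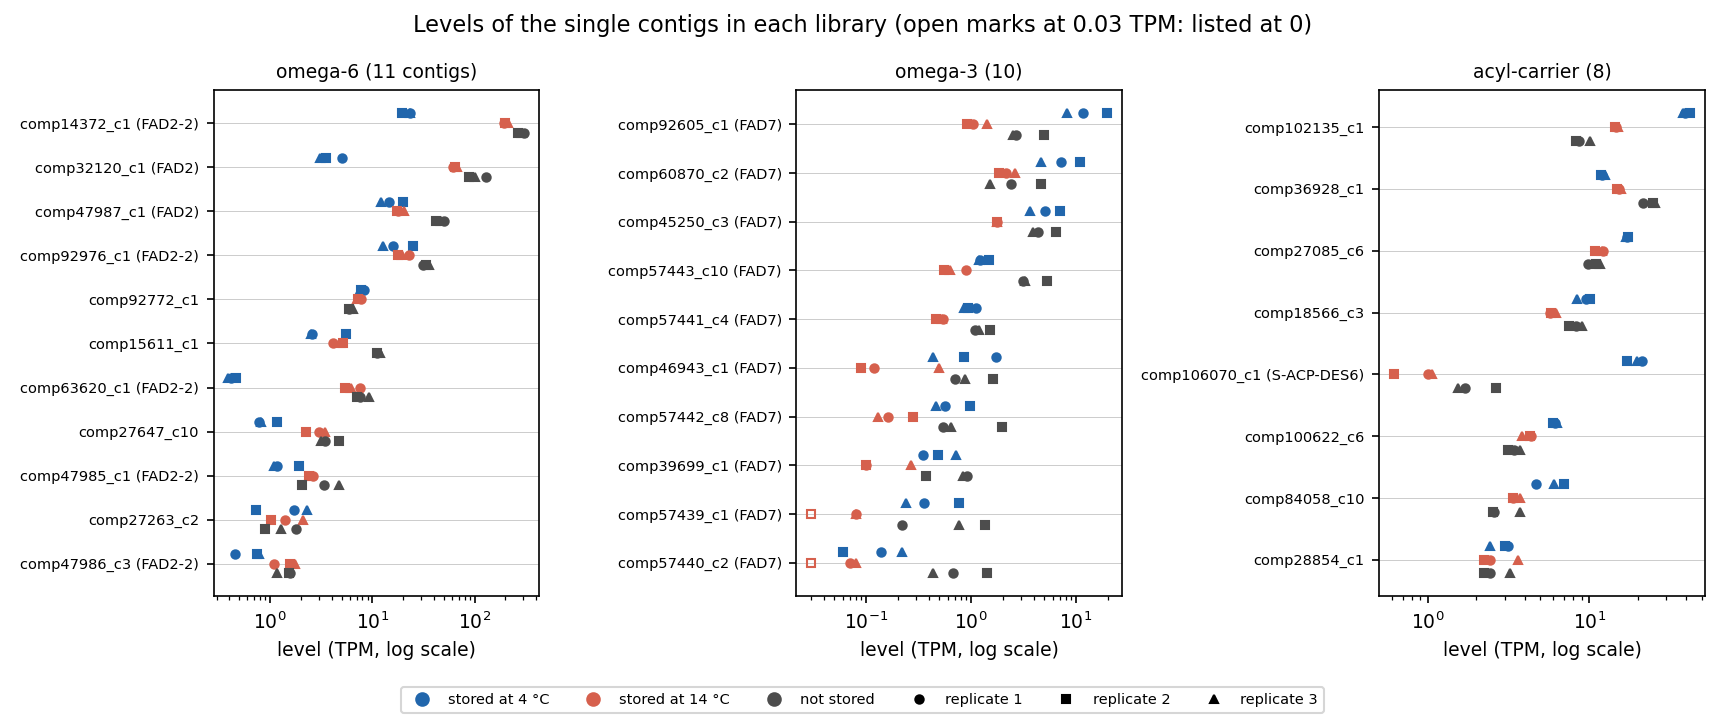
TPM of each omega-6, omega-3 and acyl-carrier contig (horizontal axes, log scale) in each of the 9 libraries, coloured by group and shaped by replicate number. The 3 FAD2-type contigs comp14372_c1, comp32120_c1 and comp63620_c1 have their libraries at 4 °C far to the left of the others, and comp106070_c1 (S-ACP-DES6) and comp92605_c1 (FAD7) have them far to the right.

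Omega-3 desaturases convert linoleate to alpha-linolenate, and FAD7 is the plastid form. Of the 10 FAD7 contigs, 9 were called higher at 4 °C than at 14 °C and 0 lower, with a median log2 fold change of 1.85. Against roots not stored, 9 of the 10 were lower at 14 °C (median -2.54), while at 4 °C 1 was higher, 2 were lower and 7 were not called. Of all tested contigs, 23.8% were higher between the stores and 15.7% lower at 14 °C against roots not stored. At 4 °C against roots not stored, 26.0% of all were higher and 26.6% lower. The 1 higher and 2 lower FAD7 contigs there were below those shares. DESeq2 called 8 and limma-voom 6 of the 10 higher between the stores. The count of 9 fell to 4 without 14 °C replicate 1, to 5 without 14 °C replicate 2 and to 5 without 4 °C replicate 2. The 4 contigs that were called between the stores under every alternative were comp92605_c1, comp60870_c2, comp45250_c3 and comp57443_c10, the longest 4 of the type.

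The most abundant of them, comp92605_c1 (1818 bases), had 11.6, 19.7 and 8.26 TPM at 4 °C, 1.04, 0.92 and 1.41 TPM at 14 °C, and 2.69, 4.99 and 2.52 TPM in roots not stored. Its 3 groups did not overlap. It was 13.0-fold higher at 4 °C than at 14 °C (log2 fold change 3.7 ± 0.44, adjusted p = 7.2e-05), the largest rise among the FAD7 contigs. Relative to roots not stored it was 3.19-fold higher at 4 °C (log2 fold change 1.68 ± 0.4, adjusted p = 0.0055) and 4.07-fold lower at 14 °C (log2 fold change -2.03 ± 0.42, adjusted p = 0.0053). It held 41.7% ± 3.39 of the omega-3 sum at 4 °C and 16.0% ± 1.42 at 14 °C, against 16.2% ± 0.486 in roots not stored.

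The contig comp60870_c2 (1320 bases) had 7.13, 10.99 and 4.68 TPM at 4 °C, 2.16, 1.83 and 2.62 TPM at 14 °C, and 2.38, 4.67 and 1.51 TPM in roots not stored. Its libraries at 4 °C were above those at 14 °C and, by a narrow margin, above those of roots not stored. The log2 fold change was 1.88 ± 0.48 between the stores (adjusted p = 0.0089) and 1.05 ± 0.47 at 4 °C against roots not stored (adjusted p = 0.086). The second value was called in 7 alternatives, with an adjusted p of 0.043 in limma-voom and 0.035 in DESeq2, and was 1.61 (adjusted p = 0.011) without replicate 2 of roots not stored, against 0.52 (adjusted p = 0.38) without 4 °C replicate 2.

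In comp45250_c3 (1769 bases) the levels at 4 °C overlapped those of roots not stored. It had 5.03, 6.99 and 3.65 TPM at 4 °C, 1.78, 1.78 and 1.77 TPM at 14 °C, and 4.38, 6.51 and 3.9 TPM in roots not stored. The libraries at 14 °C were the lowest and the other groups overlapped. It rose 3.52-fold at 4 °C against 14 °C (log2 fold change 1.81 ± 0.29, adjusted p = 0.00034) and fell 3.75-fold at 14 °C against roots not stored (adjusted p = 0.00062), with -0.09 ± 0.28 at 4 °C against roots not stored (adjusted p = 0.81).

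The contig comp57443_c10 (1216 bases) kept a lower level in both stores. It had 1.22, 1.48 and 1.19 TPM at 4 °C, 0.9, 0.55 and 0.63 TPM at 14 °C, and 3.11, 5.29 and 3.27 TPM in roots not stored, with no overlap between groups. It was 3.93-fold lower at 4 °C than in roots not stored (log2 fold change -1.97 ± 0.27, adjusted p = 7.3e-05) and 8.41-fold lower at 14 °C (log2 fold change -3.07 ± 0.29, adjusted p = 1.8e-05). Between the stores it was 2.14-fold higher at 4 °C (adjusted p = 0.0072). Against roots not stored at 4 °C, then, comp92605_c1 was called higher and comp57443_c10 lower, and the difference between the contigs was not tested.

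The fifth most abundant, comp57441_c4 (433 bases), had 1.12, 0.93 and 0.85 TPM at 4 °C, 0.54, 0.46 and 0.53 TPM at 14 °C, and 1.08, 1.51 and 1.18 TPM in roots not stored. Its libraries at 14 °C were the lowest. It was higher at 4 °C than at 14 °C (log2 fold change 1.05 ± 0.36, adjusted p = 0.029), a call lost in 8 alternatives including the omission of any library at 14 °C or of 4 °C replicate 1 or 2.

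The other 5 FAD7 contigs were 262 to 530 bases long and averaged 1.06 TPM or less in every group. Between the stores comp46943_c1 had a log2 fold change of 2.22 ± 0.73 (adjusted p = 0.026) although its libraries overlapped, and this became 1.6 without 4 °C replicate 1 (adjusted p = 0.12) and 3.34 without 14 °C replicate 3, and it was also lost without 14 °C replicate 1 or 2. Its fall at 14 °C against roots not stored was lost without 14 °C replicate 1 or 2 or replicate 2 of roots not stored. For comp57442_c8 the rise between the stores (log2 fold change 1.97 ± 0.64, adjusted p = 0.024) was lost without 4 °C replicate 2 or 14 °C replicate 1 or 3. The shortest, comp57439_c1, had 20 counts over the 3 libraries at 4 °C and 2 at 14 °C, a ratio of 11.2 with an exact 95% counting interval of 2.71 to 98.6, and its call was lost without 4 °C replicate 2 or any library at 14 °C. With 29 counts at 4 °C and 9 at 14 °C, comp39699_c1 had a ratio of 3.6 (interval 1.66 to 8.64) and lost its call between the stores in 13 alternatives, with an adjusted p of 0.053 to 0.16, among them leaving out any library at 4 °C, 14 °C replicate 1 or 2, or replicate 1 or 3 of roots not stored, and its value of 1.76 became 2.45 without 14 °C replicate 3. The contig not called between the stores, comp57440_c2, had 12 counts at 4 °C and 4 at 14 °C. In roots not stored, where it had 96 counts, it was above both stores and was called lower at 4 °C and at 14 °C. Leaving out replicate 2 of roots not stored brought the log2 fold change of comp57440_c2 at 4 °C against roots not stored to -2.24 in place of -2.85, and at 14 °C to -3.9 in place of -4.49. The same omission brought comp57442_c8 at 14 °C to -2.03 in place of -2.89 and comp57439_c1 to -3.37 in place of -4.17. Without 14 °C replicate 3, comp46943_c1 had -3.7 in place of -2.58 and comp39699_c1 -3.19 in place of -2.5 at 14 °C against roots not stored, and the call of comp39699_c1 there was lost without 14 °C replicate 1 or 2. Without 4 °C replicate 2, comp57439_c1 had 2.59 in place of 3.23 at 4 °C against 14 °C. These small contigs rest on few reads, and intervals cover counting error only.

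In TPM, the scale of the counts and ratios given next, the library with the highest level was shared by many contigs of a type. Replicate 2 was the highest library for 6 of the 10 FAD7 contigs at 4 °C, 1 of 10 at 14 °C and 9 of 10 in roots not stored. Replicate 3 was the highest for 2 of the 8 acyl-carrier contigs at 4 °C, 6 of 8 at 14 °C and 7 of 8 in roots not stored. This depended on the scale. In CPM the acyl-carrier sums of replicates 1 to 3 were 68.4, 65.2 and 75.6 at 14 °C, with replicate 3 highest. In roots not stored they were 96.5, 100.5 and 92.4, with replicate 3 lowest. For FAD7 the median ratio of replicate 2 to the mean of the other libraries was 1.42 at 4 °C and 0.735 at 14 °C, against 1.97 in roots not stored. The same medians for acyl-carrier contigs were 1.05 at 4 °C and 0.95 at 14 °C, against 0.876 in roots not stored, and for omega-6 contigs they were 1.22, 0.96 and 0.892 in that order. Without replicate 2 at 4 °C and replicate 2 of roots not stored, a choice made after their values were seen, 9 FAD7 contigs passed the filter, 6 were called higher at 4 °C than at 14 °C and 7 lower at 14 °C than in roots not stored. Among the other types, the calls of comp100622_c6, comp84058_c10, comp27085_c6, comp61241_c2 and comp95667_c1 at 4 °C against roots not stored were lost without this pair, as was that of comp57440_c2.

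Acyl-carrier desaturases act on stearate still bound to acyl carrier protein and make the oleate that later desaturases use. Of the 8 contigs, 6 rose at 4 °C against 14 °C and 0 fell, with a median log2 fold change of 0.75. Relative to roots not stored, 5 rose and 1 fell at 4 °C, and 0 rose and 3 fell at 14 °C. The rises between the stores were 75.0% of the type, against 23.8% of all tested contigs. Those at 4 °C against roots not stored were 62.5%, against 26.0% of all. The falls at 14 °C were 37.5%, against 15.7% of all, and the fall at 4 °C was 12.5%, against 26.6% of all. DESeq2 and limma-voom gave the same 6 and 0 as counts between the stores and 0 higher at 14 °C, where 1 contig was higher at an unadjusted p under 0.05. The count of 5 at 4 °C fell to 3 without 4 °C replicate 2, and to 2 without that library and replicate 2 of roots not stored.

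The contig with the largest fitted change of all 36 between the stores was comp106070_c1 (S-ACP-DES6, 1335 bases). It had 21.2, 17.1 and 19.8 TPM at 4 °C, 1.01, 0.62 and 1.06 TPM at 14 °C, and 1.71, 2.65 and 1.55 TPM in roots not stored. The libraries at 4 °C stood far above all others, and those at 14 °C below those of roots not stored. It was 23.5-fold higher at 4 °C than at 14 °C (log2 fold change 4.55 ± 0.29, adjusted p = 1.7e-07) and 7.92-fold higher than in roots not stored (log2 fold change 2.99 ± 0.26, adjusted p = 2.1e-06). At 14 °C it was 2.97-fold lower than in roots not stored (log2 fold change -1.57 ± 0.27, adjusted p = 0.0012). It held 17.2% ± 2.02 of the acyl-carrier sum at 4 °C and 1.51% ± 0.358 at 14 °C, against 3.14% ± 1.01 in roots not stored.

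The most abundant acyl-carrier contig at 4 °C, comp102135_c1 (1772 bases), had 39.2, 42.1 and 37.9 TPM at 4 °C, 14.7, 14.4 and 15.2 TPM at 14 °C, and 8.66, 8.25 and 10.2 TPM in roots not stored. Its groups did not overlap. It was 2.95-fold higher at 4 °C than at 14 °C (log2 fold change 1.56 ± 0.12, adjusted p = 7.1e-07) and 3.63-fold higher than in roots not stored (log2 fold change 1.86 ± 0.12, adjusted p = 1.5e-07). At 14 °C against roots not stored its log2 fold change was 0.3 ± 0.12 (adjusted p = 0.081), and it was the contig called higher there with library totals alone (adjusted p = 0.003) and with a stricter filter (adjusted p = 0.045).

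The contig comp36928_c1 (1597 bases) ran the other way. It had 12.0, 11.9 and 12.5 TPM at 4 °C, 15.4, 14.9 and 15.8 TPM at 14 °C, and 21.5, 25.0 and 25.5 TPM in roots not stored. Each group lay apart, with roots not stored highest. It was 2.41-fold lower at 4 °C (log2 fold change -1.27 ± 0.11, adjusted p = 1.8e-06) and 2.08-fold lower at 14 °C (log2 fold change -1.06 ± 0.11, adjusted p = 3.9e-05) than in roots not stored. Between the stores its log2 fold change was -0.21 ± 0.11 (adjusted p = 0.14), and it was called lower with library totals alone and with the stricter filter. As shares of the acyl-carrier sum, comp36928_c1 held 10.8% ± 0.48 at 4 °C and 26.1% ± 0.318 at 14 °C, against 38.0% ± 1.84 in roots not stored, and comp102135_c1 held 35.3% ± 1.33, 25.0% ± 0.414 and 14.3% ± 0.922 of it in those groups.

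Smaller rises at 4 °C were seen in 4 contigs. The contig comp27085_c6 (1503 bases) had 17.2, 17.3 and 16.9 TPM at 4 °C, 12.1, 10.9 and 12.0 TPM at 14 °C, and 9.84, 11.02 and 11.6 TPM in roots not stored. Its libraries at 4 °C were above all others. It was 1.6-fold higher at 4 °C than at 14 °C (adjusted p = 0.00054) and 1.3-fold higher than in roots not stored (adjusted p = 0.019), the second call being lost, besides under the 2-fold requirement, in 6 alternatives with an adjusted p of 0.052 to 0.097, among them leaving out 4 °C replicate 1 or 2 or replicate 1 or 3 of roots not stored. The 302-base contig comp18566_c3 had 9.6, 10.1 and 8.45 TPM at 4 °C, 5.71, 5.8 and 6.21 TPM at 14 °C, and 8.35, 7.51 and 9.06 TPM in roots not stored. Its libraries at 14 °C were the lowest, 1.75-fold below those at 4 °C in the fit (adjusted p = 0.0065) and 1.88-fold below roots not stored (adjusted p = 0.0058). Between the stores comp100622_c6 rose 1.62-fold (adjusted p = 0.0014) and comp84058_c10 1.86-fold (adjusted p = 0.0037). Both were also higher at 4 °C than in roots not stored, by 1.46-fold (adjusted p = 0.0056) and 1.67-fold (adjusted p = 0.01), and the call of comp84058_c10 was lost without 4 °C replicate 2. The last contig, comp28854_c1, averaged 2.87 ± 0.376 TPM at 4 °C, 2.77 ± 0.765 TPM at 14 °C and 2.64 ± 0.548 TPM in roots not stored, and overlapped throughout.

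The contigs described as stearoyl-CoA desaturases carried the symbol ADS3, which in Arabidopsis is the plastid enzyme FAD5 that desaturates palmitate of a galactolipid. They were scarce, with a sum of 2.34 ± 0.243 TPM at 4 °C, 4.12 ± 0.401 TPM at 14 °C and 6.0 ± 0.523 TPM in roots not stored (SD, n = 3 each). Against roots not stored, 4 of the 5 fell at 4 °C and 2 at 14 °C, and between the stores 1 fell. Of all tested contigs, 26.6%, 15.7% and 24.0% were lower in these comparisons, in the same order. The 1 of 5 between the stores was thus not above the share of all contigs. The contig lower between the stores, comp42347_c2, had 1.03, 0.76 and 0.6 TPM at 4 °C and 1.48, 1.21 and 1.79 TPM at 14 °C. In roots not stored it had 2.32, 1.98 and 2.12 TPM. Its groups did not overlap, with the libraries at 4 °C lowest and those of roots not stored highest. Its log2 fold changes were -0.78 ± 0.27 between the stores (adjusted p = 0.033), -1.72 ± 0.27 at 4 °C against roots not stored (adjusted p = 0.00021) and -0.94 ± 0.26 at 14 °C (adjusted p = 0.018). The first was lost without 4 °C replicate 2 or 3 or 14 °C replicate 1 or 3, and the last without 14 °C replicate 1 or 2 or replicate 1 of roots not stored.

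Its neighbour by identifier, comp42346_c1, had 0.76, 0.71 and 1.31 TPM at 4 °C, 1.76, 1.26 and 2.14 TPM at 14 °C, and 2.71, 1.29 and 1.73 TPM in roots not stored. Although 1 library at 4 °C overlapped roots not stored, it was called lower there (log2 fold change -1.38 ± 0.36, adjusted p = 0.0066). The contig comp54573_c2, at 0.41 ± 0.06 TPM at 4 °C, 0.61 ± 0.157 TPM at 14 °C and 0.47 ± 0.0458 TPM in roots not stored, was called in no comparison. In comp55790_c1, 5 counts over 3 libraries at 4 °C and 5 at 14 °C stood against 56 in roots not stored, ratios of 0.0956 (exact 95% counting interval 0.0299 to 0.237) and 0.0856 (0.0268 to 0.212). The contig comp61241_c2 had 0.13, 0.19 and 0.0 TPM at 4 °C, 0.22, 0.37 and 0.0 TPM at 14 °C, and 0.46, 0.68 and 0.78 TPM in roots not stored. It was called lower at 4 °C than in roots not stored (adjusted p = 0.039), which was lost in 8 alternatives with an adjusted p of 0.054 to 0.12, including the omission of 4 °C replicate 1 or 3, of 14 °C replicate 1 or of any library of roots not stored. Without 4 °C replicate 2 its log2 fold change was -3.5, against -2.72 in all libraries and -2.12 without 4 °C replicate 3.

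The sphingolipid delta-4 desaturase, DEGS1 in its animal naming, acts on the sphingoid base of ceramide in the endoplasmic reticulum. Both contigs were scarce and summed to 2.24, 2.12 and 1.9 TPM at 4 °C, 1.05, 0.74 and 1.39 TPM at 14 °C, and 0.93, 0.56 and 0.77 TPM in roots not stored. The libraries at 4 °C were the highest, and the other groups overlapped. The contig comp97449_c1 had 1.31, 0.75 and 0.81 TPM at 4 °C, 0.28, 0.29 and 0.55 TPM at 14 °C, and 0.61, 0.27 and 0.43 TPM in roots not stored. It was 2.85-fold higher at 4 °C than at 14 °C (adjusted p = 0.025), which was lost without 4 °C replicate 1 or 14 °C replicate 1 or 2. The contig comp95667_c1 had 0.93, 1.37 and 1.09 TPM at 4 °C, 0.77, 0.45 and 0.84 TPM at 14 °C, and 0.32, 0.29 and 0.34 TPM in roots not stored. Roots not stored were lowest and both stores were above them, and the call was 2.85-fold higher at 4 °C than in roots not stored (adjusted p = 0.0064), while at 14 °C the log2 fold change was 0.68 ± 0.4 (adjusted p = 0.22).

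Contigs of other steps of lipid metabolism were counted by product description alone, so a list can hold contigs of other enzymes or compartments, and differences between the lists and the desaturases were not tested. At 4 °C against 14 °C, where 23.8% of all tested contigs were higher and 24.0% lower, fatty acid synthesis gave 26 higher and 21 lower of 93 tested contigs, and acyl activation and transfer 10 higher and 11 lower of 45, both near the shares over all contigs. The fatty acid synthesis list, meant for the plastid pathway that supplies the acyl-carrier desaturases, includes contigs with symbols such as Rdh11, yxbG and ACC1. The list of electron donors held 28 ferredoxin-NADP+ reductase, 19 ferredoxin and 8 cytochrome-b5 reductase contigs, with 1 further contig matched by name. It held no contig described as cytochrome b5 itself. The electron donor contigs gave 20 higher and 15 lower of 53. Among them, ferredoxin contigs were 5 higher and 9 lower of 19, and cytochrome-b5 reductase contigs 5 higher and 1 lower of 7. These counts do not weigh contigs by level. Of the 5 higher ferredoxin contigs, comp2552_c5 averaged 463 TPM at 4 °C and 99.9 TPM at 14 °C. The means of comp89803_c2 were 306 and 67.8 TPM, and those of comp45116_c1 214 and 45.2 TPM. Of the 9 lower, comp66845_c1 averaged 0.203 TPM at 4 °C and 39.0 TPM at 14 °C. Glycerolipid assembly gave 11 higher and 19 lower of 57, galactolipid and sulfolipid synthesis 10 higher and 7 lower of 28, and sphingolipid base synthesis 10 higher and 6 lower of 24.

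At 4 °C against roots not stored, where 26.0% of all tested contigs were higher and 26.6% lower, fatty acid synthesis gave 27 higher and 28 lower of 93, again near those shares. Electron donors gave 24 higher and 18 lower of 53, glycerolipid assembly 18 and 13 of 57, galactolipid and sulfolipid synthesis 12 and 6 of 28, sphingolipid bases 10 and 1 of 24, and acyl activation 15 and 8 of 45. At 14 °C against roots not stored, where 15.1% of all tested contigs were higher and 15.7% lower, fatty acid synthesis gave 12 higher and 21 lower of 93 and electron donors 7 and 14 of 53. Glycerolipid assembly gave 13 and 4 of 57 there, galactolipid and sulfolipid synthesis 8 and 1 of 28, sphingolipid bases 5 and 1 of 24, and acyl activation 11 and 5 of 45. With library totals alone, fatty acid synthesis gave 26 higher and 10 lower in that comparison, a reversed order of the counts. Under that scaling the desaturases gave 6 omega-6, 9 omega-3, 3 acyl-carrier and 1 stearoyl-CoA contig lower, against 6, 9, 3 and 2 with TMM scaling, and 1 acyl-carrier contig (comp102135_c1) higher, against 0.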

How the data were processed

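RNA sequencing libraries of storage roots were analysed from 1 deposited table of assembled contigs with 27 value columns. Per the file headers, the authors deposited estimated counts, TPM and RPKM for each of the 9 libraries. The estimated counts are not all whole (18.7% to 22.6% of all values, zeros included, were whole within 1e-08) and were rounded for the tests. TPM as deposited gave the levels, and deposited RPKM served as an alternative for the sums. Tools listed in the submitters' processing notes, with no role given, are HISAT2 2.0.4, cutadapt 1.9, StringTie 1.3.4d, edgeR and DESeq2. The tool that made the counts, its handling of strand and its sharing of reads between near-identical contigs are not given in the sources used here.

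Counts were fitted with edgeR 4.0.16 (R 4.3.3) by the robust quasi-likelihood test on all 9 libraries, with TMM scaling and the filterByExpr filter, and p-values were Benjamini-Hochberg adjusted over 94802 contigs at 0.05. The SE is the absolute log2 fold change divided by the square root of F. Alternatives used limma-voom 3.58.1, DESeq2 1.42.0, other scalings and filters, a replicate block, the 2 groups compared alone, a change of at least 2-fold, and each library left out. Tables and plots were made with Python 3.11.15, numpy 2.4.6, pandas 2.3.3 and matplotlib 3.10.9. The test was tested on simulated data in which a small part of the contigs changed, in 1 group, and none of those was below 1 CPM. It therefore did not examine recovery of changes in low-count contigs, or scaling where many contigs change as here. All 36 desaturase contigs are accounted for. Described in full were, in each type, up to 5 contigs of highest mean TPM and, with at least 1 CPM in the higher group, the called contig of largest rise and of largest fall at 4 °C against 14 °C. The members and gene lists were chosen with earlier results of these data known. Per the labels, the 3 libraries of a group are biological replicates, each a pool of 7 roots, so p-values measure the spread between pools. At these depths, 3 counts correspond to 0.0314 to 0.0444 CPM when scaled by library totals alone. No contig sequences were used here.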

Additional observations from a re-analysis of the deposited data

How the results depend on the processing

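Over 1890 single-contig values under alternatives, 0 called values reversed, 79 lost and 27 gained a call, and 34 changed sign while called in neither. Of 65 calls, 48 held in every alternative that tested the contig, apart from the requirement of at least 2-fold, which is not counted here. That requirement left 12 desaturases higher and 5 lower at 4 °C against 14 °C. Against roots not stored it left 4 and 16 at 4 °C, and 0 and 16 at 14 °C. Over all 94802 contigs it left 15590 higher and 17224 lower at 4 °C against 14 °C. Against roots not stored it left 17675 and 19764 of all contigs at 4 °C, and 8672 and 9432 at 14 °C. The stricter filter tested 21 of the 36 desaturases. It gave 10 higher at 4 °C against 14 °C (4 of them omega-3) and 1 acyl-carrier contig lower there. At 14 °C against roots not stored it gave 1 higher (acyl-carrier). Among omega-3 contigs it gave 1 lower at 4 °C and 3 lower at 14 °C against roots not stored. Over all 51873 contigs tested under it, 16760 were higher and 16457 lower at 4 °C against 14 °C. Against roots not stored, 17329 of all were higher and 17395 lower at 4 °C, and 11342 and 12155 at 14 °C. Of the acyl-carrier contigs, the 2-fold requirement left 2 higher at 4 °C against 14 °C and 2 against roots not stored. Library totals alone gave 1 acyl-carrier contig lower at 4 °C against 14 °C and 1 higher at 14 °C against roots not stored. Omega-3 contigs higher at 4 °C than in roots not stored numbered 2 with library totals alone, the replicate block, limma-voom or DESeq2.

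Leaving out libraries, including a pair left out together that was chosen after seeing the data (replicate 2 at 4 °C and of roots not stored), gave 10 to 16 desaturases higher at 4 °C against 14 °C and 4 to 8 against roots not stored. Omega-3 contigs higher at 4 °C numbered 4 to 9 against 14 °C and 1 to 2 against roots not stored, with 1 to 2 lower there, and acyl-carrier contigs higher at 4 °C against roots not stored numbered 2 to 5. Replicate numbers showed no pairing common to all groups: deviations of same-numbered libraries correlated at -0.424 to 0.259, and those of other numbers at -0.224 to 0.375. Between 4 °C and roots not stored the same-numbered values were 0.175, 0.0849 and 0.259. They were negative between 14 °C and either other group. With 3 libraries per group, this check cannot exclude a pairing. With the replicate block, 13 desaturases were higher and 5 lower at 4 °C against 14 °C, 8 and 16 at 4 °C against roots not stored, and 0 and 20 at 14 °C against roots not stored.

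Log2 ratios of the sums moved with the unit. With CPM on TMM-scaled library sizes, omega-6 was -3.21 at 4 °C and -0.98 at 14 °C against roots not stored, acyl-carrier 1.11 at 4 °C against 14 °C, 0.64 at 4 °C and -0.47 at 14 °C against roots not stored, and stearoyl-CoA -0.83 at 14 °C. With RPKM, omega-6 at 14 °C was -0.79, and acyl-carrier 0.66 at 4 °C and -0.25 at 14 °C, all against roots not stored.

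With library totals alone, the median log2 fold change of all contigs was -0.23 at 4 °C against 14 °C and 0.27 at 14 °C against roots not stored. At 14 °C against roots not stored, that scaling gave 26 higher and 10 lower for fatty acid synthesis, 12 higher for electron donors, 22 and 2 for glycerolipid assembly, 15 and 0 for galactolipid and sulfolipid synthesis, 10 higher for sphingolipid bases, and 18 and 3 for acyl activation. Galactolipid and sulfolipid contigs numbered 6 higher at 4 °C against 14 °C with library totals, and 2 lower at 14 °C against roots not stored with median-of-ratios size factors. The causes were not tested. Depth limits the FAD7 and ADS3 contigs with few counts.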
